A study of Mus musculus with 28 samples.

Results

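The genes described here are 36 interferon-stimulated and antigen presentation genes, taken by symbol from a fixed list out of the 55487 genes of a count table. Their RNA was measured in ribosomes of leptin receptor cells, and in the RNA left behind, of the mouse hypothalamus. The list was chosen with earlier results of these data known. By role the 36 genes are 6 regulators of the interferon response, 18 antiviral effectors, 3 genes of the PARP9 group, 1 secreted glycoprotein and 8 genes of class I antigen presentation. All 36 were found in the table, and 35 of them passed a filter on low values (10 or more counts in 3 or more libraries of a comparison). The gene that did not, Oas1a, had at most 8 reads in a bead library and 19 in a depleted one.

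Interferons bind receptors on the cell surface, and JAK kinases then activate transcription factors that enter the nucleus. Many of the genes they switch on carry an element named the interferon-stimulated response element (ISRE). Another element, the gamma-activated site (GAS), is bound by STAT3 dimers, which form after leptin. The genes switched on in this way block viruses at many steps, and they raise the display of peptides on class I MHC molecules. Most neurons hold class I MHC at a low level, and microglia and endothelial cells are the better known sources of it in brain.

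All mice carried LepRb-eGFP-L10a, a ribosomal protein with a fluorescent tag, produced by cells with the long form of the leptin receptor, so that pulling on the tag retrieves RNA under translation in those cells. Male and female mice, mixed, of 10 to 13 weeks had their food taken away when the lights came on. They were given metreleptin (5 mg/kg, intraperitoneal) or vehicle, described as 0.9% saline in the protocol and as PBS in the sample labels, and the hypothalamus was taken 3 or 10 h later. Each of 14 lysates gave 1 library of bead-bound RNA and 1 of depleted RNA, the liquid left after the pull-down. In each fraction, 4 vehicle and 3 leptin lysates were wild type at 3 h, and 1 vehicle and 3 leptin lysates were wild type at 10 h. A further 2 vehicle lysates and 1 leptin lysate at 10 h were from ob/ob mice, which make no functional leptin. No source used here says if a lysate is 1 mouse or a pool, so p-values measure the spread between lysates only. The lysates of 3 h are named m1, m3, f1 and f3 (vehicle) and m24, f2 and f4 (leptin). These letters may stand for sex, which would then be unbalanced, and no fit had a term for it. The 3 sets (wild type at 3 h, wild type at 10 h, ob/ob at 10 h) were sequenced in 3 separate runs, so time, genotype and run cannot be told apart.

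The bead libraries held 21277982 to 42267040 counts each, the depleted libraries 19649105 to 41804049. Levels below are CPM, a gene's counts scaled to a common library total after TMM scaling, and levels of different genes are compared only as RPKM, CPM per kilobase of exon. The leptin receptor gene Lepr was at 6.63 to 12.1 CPM in the 14 bead libraries and at 1.48 to 3.13 CPM in the 14 depleted libraries, with no overlap. The summed level of 12 microglia markers was 26.2 to 93.4 CPM in beads and 78.2 to 160 CPM in depleted RNA, and that of 12 endothelial and mural markers was 32.1 to 230 and 67.3 to 101 CPM. Of 12 lymphocyte markers, 10 stayed under 0.5 CPM in every bead library. In tissue RNA, fewer cells of a type and less RNA per cell cannot be told apart. The lysates of 3 h named vehicle m3 and leptin f2 carried the most pituitary transcripts. Their summed markers were at 69.8 and 1325 CPM in beads and at 287 and 3036 in depleted RNA. The ob/ob leptin lysate came next, at 27.1 CPM in beads and 147 in depleted RNA. It stays in the fits that leave out those 2 lysates. Vehicle m1 stood apart in the genes of interest themselves.

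The promoters of several members hold the elements named above, and 5 are shown, of members whose values are described below. RefSeq promoter windows (build GRCm38.p6, 250 bases before the start site to 50 after) were found for 29 of the 36 members. Each line gives bases of the gene's strand, 5′ to 3′, all before the start site, with a single matched element in capitals.

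Ifit1: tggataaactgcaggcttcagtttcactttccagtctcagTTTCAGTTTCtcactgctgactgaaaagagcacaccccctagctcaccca
Isg15: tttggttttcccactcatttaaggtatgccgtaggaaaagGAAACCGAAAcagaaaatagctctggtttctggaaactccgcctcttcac
Bst2: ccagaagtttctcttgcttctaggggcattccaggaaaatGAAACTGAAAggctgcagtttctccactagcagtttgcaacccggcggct
B2m: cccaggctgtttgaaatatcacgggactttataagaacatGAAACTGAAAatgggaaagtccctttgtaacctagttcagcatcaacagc
Irf1: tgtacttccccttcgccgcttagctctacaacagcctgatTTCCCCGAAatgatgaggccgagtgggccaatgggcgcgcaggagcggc

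The stretches are chr19:34640764-34640853 on the plus strand for Ifit1, chr4:156200841-156200930 on the minus strand for Isg15 and chr8:71537547-71537636 on the minus strand for Bst2. Those of B2m and Irf1 are chr2:122147508-122147597 and chr11:53769884-53769972, both on the plus strand. The first 4 lines mark an ISRE core, searched on both strands as GAAA, any 2 bases and GAAA again. It begins 85 bases before the start site in Ifit1, 72 before in Isg15, 124 before in Bst2 and 139 before in B2m. In the Ifit1 line the core lies on the opposite strand and therefore reads as TTTC repeats. The last line marks a GAS element, searched as TTCNNNGAA, which reads the same on both strands and begins 90 bases before the start site of Irf1. The ISRE core was in the window of 13 of the 29 members, against 3.98% of the 26994 genes of the table. A longer form that has a C after the second GAAA, and so contains the core, was in 10 of the 29 against 0.937% of genes. The GAS letters were in 9 of the 29 members against 9.55% of genes. A match describes letters in this window and is no measure of binding, and 7 members (Ifi27, Mx2, Parp14, Parp9, Rtp4, Tap2 and Usp18) had no window here.

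Levels differed widely among the members. Per length, B2m, the light chain that every class I molecule needs, was the highest in beads at a mean of 47.7 RPKM over 14 libraries. It was followed by Ifi27, a small mitochondrial and membrane protein induced by interferon, at 16.8, and by H2-D1, a class I heavy chain, at 12.1. Lgals3bp, a secreted glycoprotein, was at 7.28 RPKM, and Tapbp (tapasin), which loads peptide onto class I, was at 6.16. The other 31 members were below 5 RPKM in beads, down to 0.0860 for Parp14 and 0.0380 for Oas1a. In depleted RNA B2m, Ifi27 and H2-D1 again led, at 25.7, 13.9 and 6.67 RPKM. In build GRCm38 the genes whose values are given most fully lie at chr2:122147686-122153083 (B2m), chr17:35262730-35267499 (H2-D1), chr3:142620602-142638008 (Gbp2), chr11:53770014-53778374 (Irf1), chr12:103434211-103440239 (Ifi27) and chr11:72301629-72313733 (Xaf1), all on the plus strand, and at chr17:33996017-34000347 on the minus strand (H2-K1). Tap1, Tap2, Tapbp, Psmb8 and Psmb9 also lie on chromosome 17. H2-D1 and H2-K1 are near-identical to each other and to the H2-Q genes in stretches, as are Ifitm2 and Ifitm3 and the GBP genes among themselves, and the counting may have split or dropped such reads.

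Class I genes were higher in beads or not called. Of the 8 members 6 were higher in beads than in depleted RNA of the same lysate, none was lower, and the median difference was 0.77 on the log2 scale. The antiviral effectors were split, with 7 of 17 tested members higher in beads and 8 lower. Across all roles 18 of 35 members were higher and 11 lower (edgeR's quasi-likelihood test with lysate as a block, Benjamini-Hochberg adjusted p under 0.05). Over all 19682 genes tested, 38.6% were higher and 39.3% lower, so that the share of members that differed is near the background of 77.9%. Without vehicle m1, a lysate described below, 18 were higher and 12 lower, and 38.2% and 38.7% of all genes. The median over members was 0.28 against -0.01 over all genes. When libraries were scaled by their totals in place of TMM, the median of all genes moved by over 0.1, to -0.19, that of the members to 0.10, and the split of the members to 16 higher and 14 lower. Under that scaling Ifi27 and Oasl2 were no longer called, and Usp18, Ifih1 and Ifit1 were called lower. Among all genes the split then was 5393 higher and 9925 lower.

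**Figure D1:**
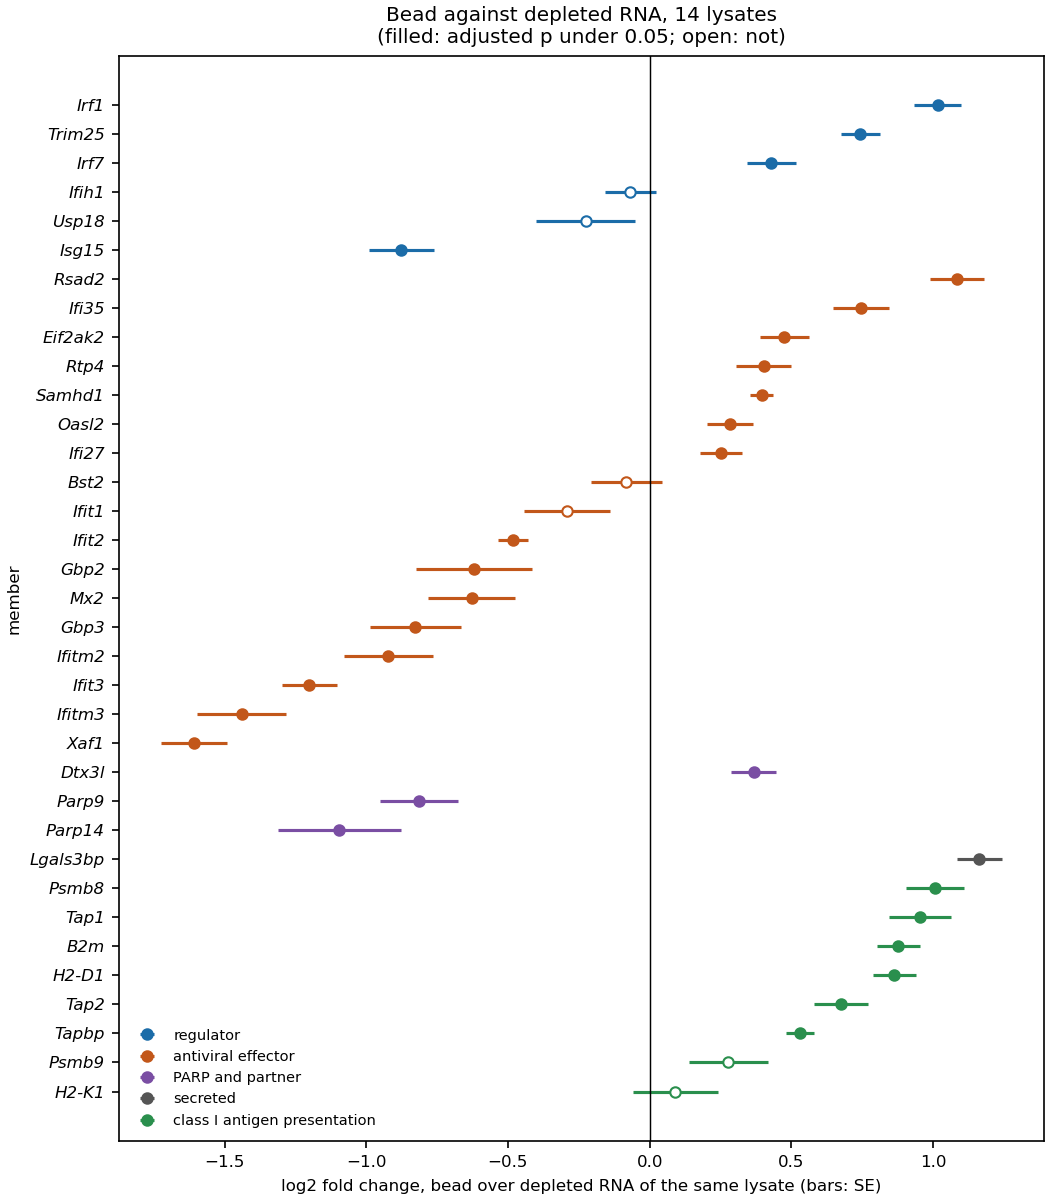
Difference between bead and depleted RNA of the same lysate for 35 members, as log2 fold change (horizontal axis) with its standard error as a bar, 1 row per gene, coloured by role, filled where the adjusted p is under 0.05 and open where it is not. Lgals3bp lies farthest to the right at 1.16 and Xaf1 farthest to the left at -1.61, and all 8 class I genes lie right of 0.

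Among the class I genes, B2m ran from 21.7 through a median of 38.7 to 87.9 CPM in the 14 bead libraries, and from 15.4 through 19.7 to 41.0 CPM in depleted RNA. The ranges overlap between lysates, but within each of the 14 lysates the bead library was the higher one. The log2 difference was 0.88 (SE 0.0758, adjusted p = 3.21e-09). H2-D1 ran from 21.5 through 27.8 to 56.6 CPM in beads and from 11.5 through 16.0 to 28.3 in depleted RNA, again higher in beads in 14 of 14 lysates, by 0.86 (SE 0.0772, adjusted p = 4.36e-09). Psmb8, an interferon-induced catalytic subunit of the immunoproteasome, was higher by 1.01, Tap1 and Tap2, the peptide transporter of the endoplasmic reticulum, by 0.95 and 0.68, and Tapbp by 0.53. H2-K1, the other classical heavy chain, was at 3.23 to 21.8 CPM in beads and 4.27 to 15.5 in depleted RNA and was higher in beads in only 7 of 14 lysates (0.09, adjusted p = 0.588). Psmb9, a second immunoproteasome subunit, differed by 0.28 (adjusted p = 0.0724). Summed microglia markers were lower in beads than in depleted RNA (above). Endothelial and mural markers were higher in beads in vehicle f1 (230 against 101 CPM), vehicle f3 (167 against 80.3) and leptin f2 (90.35 against 68.9). They were nearly equal in the ob/ob vehicle lysate 2 (91.5 against 90.5) and lower in beads in every other lysate. The part of either in these differences was not tested.

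Of the regulators, Irf1, a transcription factor that drives class I and guanylate-binding protein genes, ran from 6.45 through 11.5 to 15.2 CPM in beads and from 4.20 through 5.58 to 7.32 in depleted RNA. Beads were higher in all 14 lysates, by 1.02 (SE 0.0828, adjusted p = 7.62e-10). Trim25, the ubiquitin ligase that activates the RNA sensor RIG-I, was higher by 0.74, and Irf7, which amplifies type I interferon genes, by 0.43, each in 14 of 14 lysates. Isg15, a ubiquitin-like modifier, went the other way: its bead library was the lower in 14 of 14 lysates, by 0.88 on the log2 scale. Usp18, which removes ISG15 from proteins and blocks the type I interferon receptor, and the RNA sensor Ifih1 were not called (adjusted p = 0.244 and 0.491).

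Among effectors the extremes were Rsad2 and Xaf1. Rsad2 (viperin), which makes a chain-ending nucleotide, was at 1.29, 1.88 and 3.38 CPM (lowest, median, highest) in beads and at 0.628, 0.866 and 1.59 in depleted RNA, and was higher in beads in all 14 lysates by 1.08 (SE 0.0963, adjusted p = 2.71e-09). Xaf1, a partner of the apoptosis inhibitor XIAP, was at 1.42, 2.43 and 6.77 CPM in beads and at 5.03, 7.72 and 15.0 in depleted RNA. It was lower in beads in all 14 lysates, with a log2 difference of -1.61 (SE 0.116, adjusted p = 1.45e-10). The 3 IFIT genes, which bind foreign RNA, lie side by side on chromosome 19, and Ifit3 and Ifit2 were lower in beads by 1.20 and 0.48 on the log2 scale in 14 of 14 lysates. Their neighbour Ifit1 was not called in all lysates (-0.29, adjusted p = 0.0851) and was called lower without vehicle m1 (-0.40, adjusted p = 0.0148).

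Ifit3 itself was at 1.34, 2.46 and 5.50 CPM in beads and at 3.88, 5.86 and 10.9 in depleted RNA, and its reads may be shared with the near-identical Ifit3b. Ifitm3, a membrane protein that blocks virus entry, was at 0.738, 1.16 and 2.52 CPM in beads and at 2.78, 3.32 and 4.51 in depleted RNA. These ranges do not overlap, and the log2 difference was -1.44 (SE 0.157, adjusted p = 5.67e-08). Ifitm2, its close copy, differed by -0.92, the guanylate-binding proteins Gbp3 and Gbp2 by -0.83 and -0.62, and Mx2, a dynamin-like GTPase annotated as a polymorphic pseudogene in this mouse build, by -0.63. The remaining effectors called were higher in beads: Ifi35 by 0.75, the kinase Eif2ak2 (PKR) by 0.47, Rtp4 and the nucleotide hydrolase Samhd1 by 0.40 each, Oasl2 by 0.28 and Ifi27 by 0.25. Bst2 (tetherin), which holds budding virus at the membrane, was not called (-0.08, adjusted p = 0.551).

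The 3 genes of the PARP9 group did not share a direction. Dtx3l, the ubiquitin ligase partner of PARP9, was higher in beads by 0.37, while Parp9 and Parp14 differed by -0.81 and -1.10. Dtx3l and Parp9 overlap on opposite strands, as do Tap1 and Psmb9, B2m and Patl2, Irf7 and Phrf1, and Irf1 and Gm17334, and the library kit does not mark the strand, so reads from the stretch that a pair shares cannot be told apart. The same holds, among others, for Rtp4 and Masp1, Ifi35 and Gm11626, Psmb8 and Gm20496, Tap2 and Gm20496, and Eif2ak2 and Gm26637. Tapbp overlaps Zbtb22 on the same strand. Lgals3bp had the largest rise in beads of any member. It ran from 14.2 through 20.5 to 29.1 CPM in beads and from 6.32 through 9.09 to 12.9 in depleted RNA, with no overlap, and the log2 difference was 1.16 (SE 0.0796, adjusted p = 6.43e-11).

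A list of 82 other genes of the interferon and antigen presentation pathways gave 77 that could be tested, of which 35 were higher in beads and 23 lower, beside 38.6% and 39.3% of all genes. The 58 called are thus near the background of 77.9%. Of its antigen presentation genes 16 of 21 were higher and 4 lower, and the 4 lower ones belong to class II presentation: Ciita, its master regulator, differed by -1.98, the class II chains H2-Aa and H2-Ab1 by -1.69 and -0.98 and the invariant chain Cd74 by -1.49. Of the other class II genes listed, H2-Eb1 was not called (-0.15, adjusted p = 0.142) and H2-DMa, a peptide loader, was higher by 0.27. The largest rise was in H2-Q6, a nonclassical class I gene with near-identical copies, at 1.63. The other large changes were Herc6, an ISG15 ligase (-1.55), Ifitm1 (-1.55), the nucleic acid sensor Zbp1 (-1.47) and Slfn2 (-1.47). Several of these genes were near the floor in beads. Ciita was at 0.052 to 0.786 CPM there, Ifitm1 at 0.181 to 0.774, Zbp1 at 0.0 to 0.393 and Slfn2 at 0.036 to 0.551. No minimum level was set for naming genes of this list. Of 9 receptor and JAK-STAT genes 5 were higher in beads and 2 lower, and of 8 sensors and adaptors 1 was higher and 5 lower. The other interferon-stimulated genes were split, with 13 of 39 higher and 12 lower.

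Before leptin is considered, 1 lysate has to be described. In vehicle m1, a wild-type lysate of 3 h, most members were at their highest level of the whole fraction. This held for 25 of 36 members in beads, where 5.08% of 19682 genes had their highest level in this library, and for 28 of 36 in depleted RNA, against 6.87%. In 22 of 36 members it held in both fractions, against 1.04% of genes. By role, the 22 were 4 of 6 regulators, 10 of 18 effectors, 7 of 8 class I genes, the secreted gene and none of the PARP9 group. The level in m1 over the median of the 13 other libraries had a median of 2.04 across the members in beads (0.802 to 9.18) and of 1.79 in depleted RNA (0.619 to 4.18). For class I genes the median was 2.56 in beads and 2.32 in depleted RNA. Lysate m1 was singled out by the values of these same genes. The shares of members and of all genes given here and below therefore describe it and are no test.

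**Figure D2:**
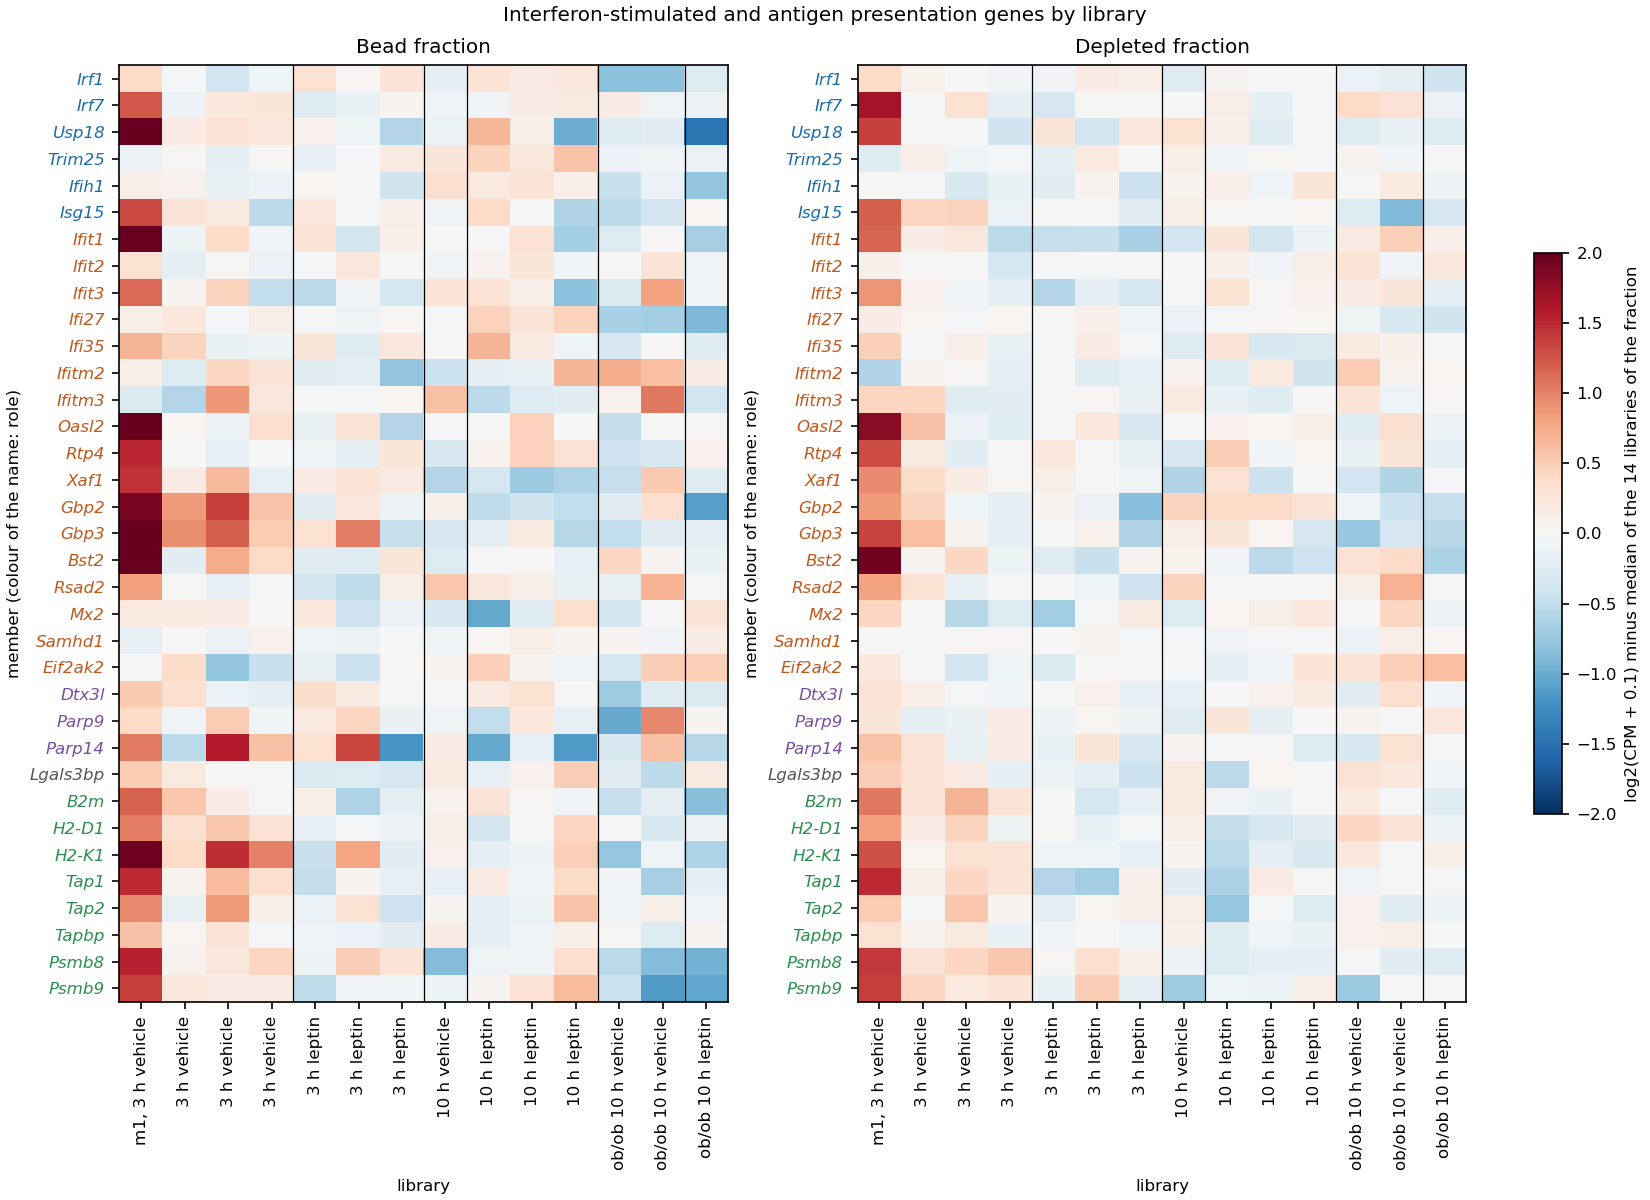
Level of 35 members (rows, gene names coloured by role) in the 14 libraries of each fraction (columns), as log2(CPM + 0.1) minus the gene's median in that fraction, red above it and blue below it, with the scale ending at 2 and -2. Blue gene names are regulators, orange antiviral effectors, purple the PARP9 group, grey the secreted gene and green class I. The column of vehicle m1 is the highest of its row for 25 of all 36 members in beads and 28 in depleted RNA.

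The largest ratio was in the effector Gbp3, at 6.22 CPM in the m1 bead library against 0.498 to 1.94 in the 13 others. Bst2 was at 7.98 CPM in m1 beads and at 0.737 to 1.58 in the 13 others, and at 4.64 against 0.707 to 1.57 in depleted RNA. Ifit1 was at 10.3 CPM in m1 beads against 1.15 to 2.50 elsewhere, and at 6.00 in m1 depleted RNA against 1.63 to 3.71. Oasl2, a relative of the OAS enzymes that sense double-stranded RNA, was at 24.3 CPM in m1 beads and 16.0 in m1 depleted RNA, and elsewhere at 3.61 to 7.54 and 3.61 to 6.83. None of these 4 genes overlapped between m1 and the other libraries of beads.

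Usp18 was at 3.99 CPM in m1 beads and 0.194 to 1.19 in the others, and H2-K1 at 21.8 against 3.23 to 15.7. A few members did not follow. The lowest ratios were those of Ifitm2 in depleted RNA, 0.619, and of Ifitm3 in beads, 0.802, although Ifitm3 in depleted RNA was at its highest in m1. In m1 Trim25 stood below the median of the other libraries in both fractions (ratio 0.907 and 0.837), and Samhd1 and Eif2ak2 were at 0.887 and 0.970 of it in beads. Of 28 members with a promoter window and a level that passed the filter, the 12 with an ISRE core had a median ratio of 2.31 in m1 beads and the 16 without it 1.84. In depleted RNA the medians were 1.93 and 1.63. The 2 sets overlap widely (0.802 to 9.18 with the core and 0.887 to 4.47 without it in beads), and no test was made of them.

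Few genes outside the list stood apart in the same way. With a stricter rule, by which m1 lies far above the other 3 vehicle lysates of 3 h in both fractions (Dixon's gap test), 9 of 36 members stood apart in beads and 7 of 36 in depleted RNA, against 0.513% and 0.666% of all genes. In both fractions 11 of 19682 genes did, 0.0559%. Of the 11, 4 were members (Bst2, Psmb8, Psmb9 and Usp18), 4 belonged to the other pathway list (Gbp4, H2-Q6, H2-Q7 and Ifi47) and 3 to neither list. The 3 were Iigp1, an interferon-induced GTPase, the pseudogene Gpx4-ps2, and Ttr, a thyroid hormone carrier made by choroid plexus. Ttr was at 24.7 CPM in m1 beads against 1.73 to 5.33 in the other 3 vehicle lysates, and at 85.1 against 4.28 to 13.7 in depleted RNA. The chemokine gene Cxcl10 was at 2.83 CPM in m1 depleted RNA against 0.118 to 0.238 in those 3. Summed microglia markers in m1 lay within the range of the other 3 vehicle lysates, at 66.6 against 39.1 to 93.4 CPM in beads and 146 against 110 to 160 in depleted RNA, as did lymphocyte markers (1.87 against 1.62 to 2.11 CPM in beads). Of 18 such sums (9 marker lists in each fraction) 13 lay within that range. The 5 outside it were pituitary markers in both fractions and endothelial markers in beads, which were lower in m1, and red cell and neuron markers in beads, which were higher. The part of choroid plexus RNA in the member levels was not tested. Since m1 is a control of 3 h, the main leptin results below are given with and without it.

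With low-count genes filtered out, no member passed the test for leptin in beads. With one leptin effect over the 3 sets of lysates, 0 of 35 members were called by edgeR's quasi-likelihood test, where 0.0165% of 18212 genes were called higher and 0.00549% lower. At an unadjusted p under 0.05 there were 8 members, 1 higher and 7 lower, and among all genes 2.84% and 8.2%. DESeq2 called 1 member lower and limma voom none. Without the filter on low counts edgeR called 7 members lower (Usp18, Ifit1, Gbp2, Bst2, B2m, H2-D1 and H2-K1). For DESeq2 and for the fit without the filter the share of all genes called is not given here. Those counts therefore cannot be read as particular to the members. The fitted change was below 0 in 29 of 35 members, against 48.4% of all genes, with a median of -0.32 against 0.01. Without vehicle m1 it was below 0 in 24 of 35 (48.1% of all genes) and the median was -0.12. Again 0 members were called, against 0.0166% of all genes higher and 0.0111% lower, and 4 had an unadjusted p under 0.05, 1 higher and 3 lower, against 2.34% and 7.09%.

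**Figure D3:**
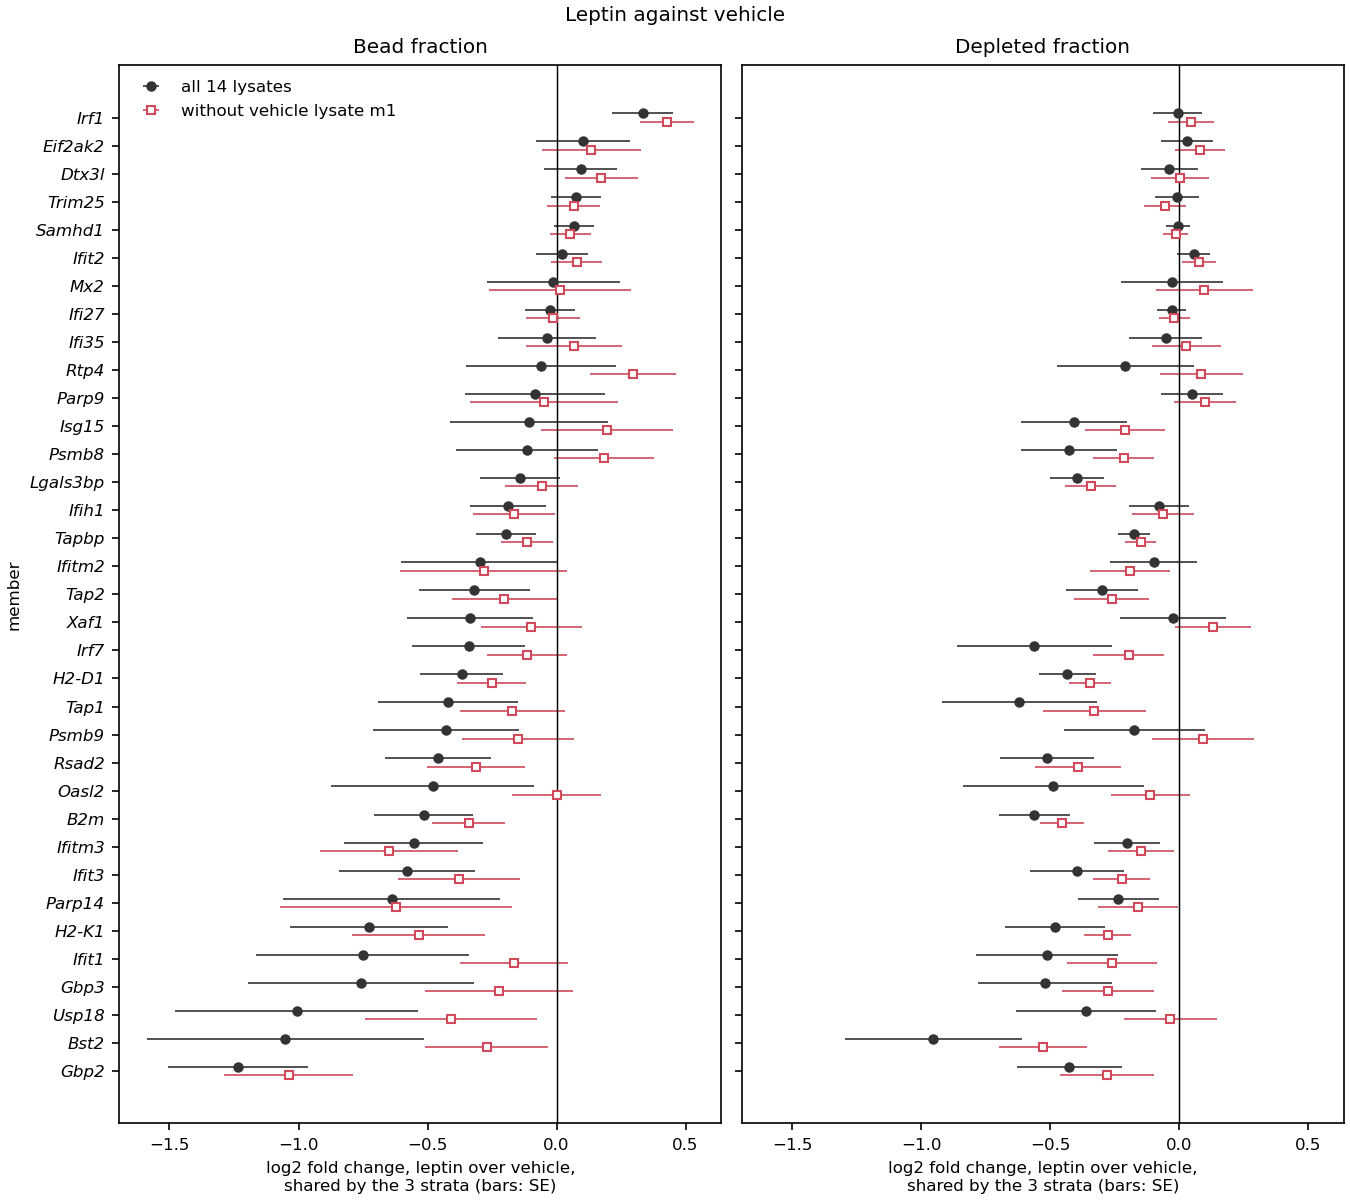
Leptin against vehicle for 35 members as log2 fold change with its standard error, 1 row per gene, in beads and in depleted RNA, with one effect over the 3 sets of lysates. Black circles use all 14 lysates and red open squares leave out vehicle m1; Bst2 in beads moves from -1.05 to -0.27 and Oasl2 from -0.48 to 0.00.

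Gbp2, a guanylate-binding protein that attacks the vacuoles of intracellular pathogens, had the smallest p. In wild-type beads at 3 h it was at 2.63, 1.22, 1.82 and 0.986 CPM in the vehicle lysates m1, m3, f1 and f3, and at 0.529, 0.757 and 0.583 in the leptin lysates m24, f2 and f4. The 2 groups do not overlap. At 10 h it was at 0.682 CPM in the single wild-type vehicle lysate against 0.413, 0.457 and 0.421 after leptin, and in ob/ob mice at 0.530 and 0.827 against 0.242. Every leptin value was thus below every vehicle value of its own set, on 5 to 87 reads per library. The log2 change was -1.24 (SE 0.271, adjusted p = 0.122), and -1.04 without m1 (adjusted p = 0.179). DESeq2 called it (adjusted p = 0.015), and so did edgeR without the 2 lysates rich in pituitary transcripts (-1.34, adjusted p = 0.0359). In depleted RNA the change was -0.43 (adjusted p = 0.323), or -0.28 without m1 (adjusted p = 0.532), and the difference between the fractions was -0.78 (adjusted p = 0.886).

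Irf1 was the only member with a positive change at an unadjusted p under 0.05. Its bead levels at 3 h were 15.2, 11.2, 8.81 and 10.8 CPM after vehicle and 14.3, 11.8 and 13.8 after leptin, where m1 again gave the highest value and the groups overlap. At 10 h they were 10.2 CPM after vehicle against 13.9, 12.9 and 13.5 after leptin in wild type, and 6.45 and 6.50 against 9.54 in ob/ob. Within each of these 10 h sets leptin values lay above vehicle values. The log2 change was 0.33 (SE 0.118, adjusted p = 0.327), and 0.43 without m1 (adjusted p = 0.184). With a score of glial markers as a covariate it was 0.18 (adjusted p = 0.686). In depleted RNA it was -0.01 (adjusted p = 0.986).

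**Figure D4:**
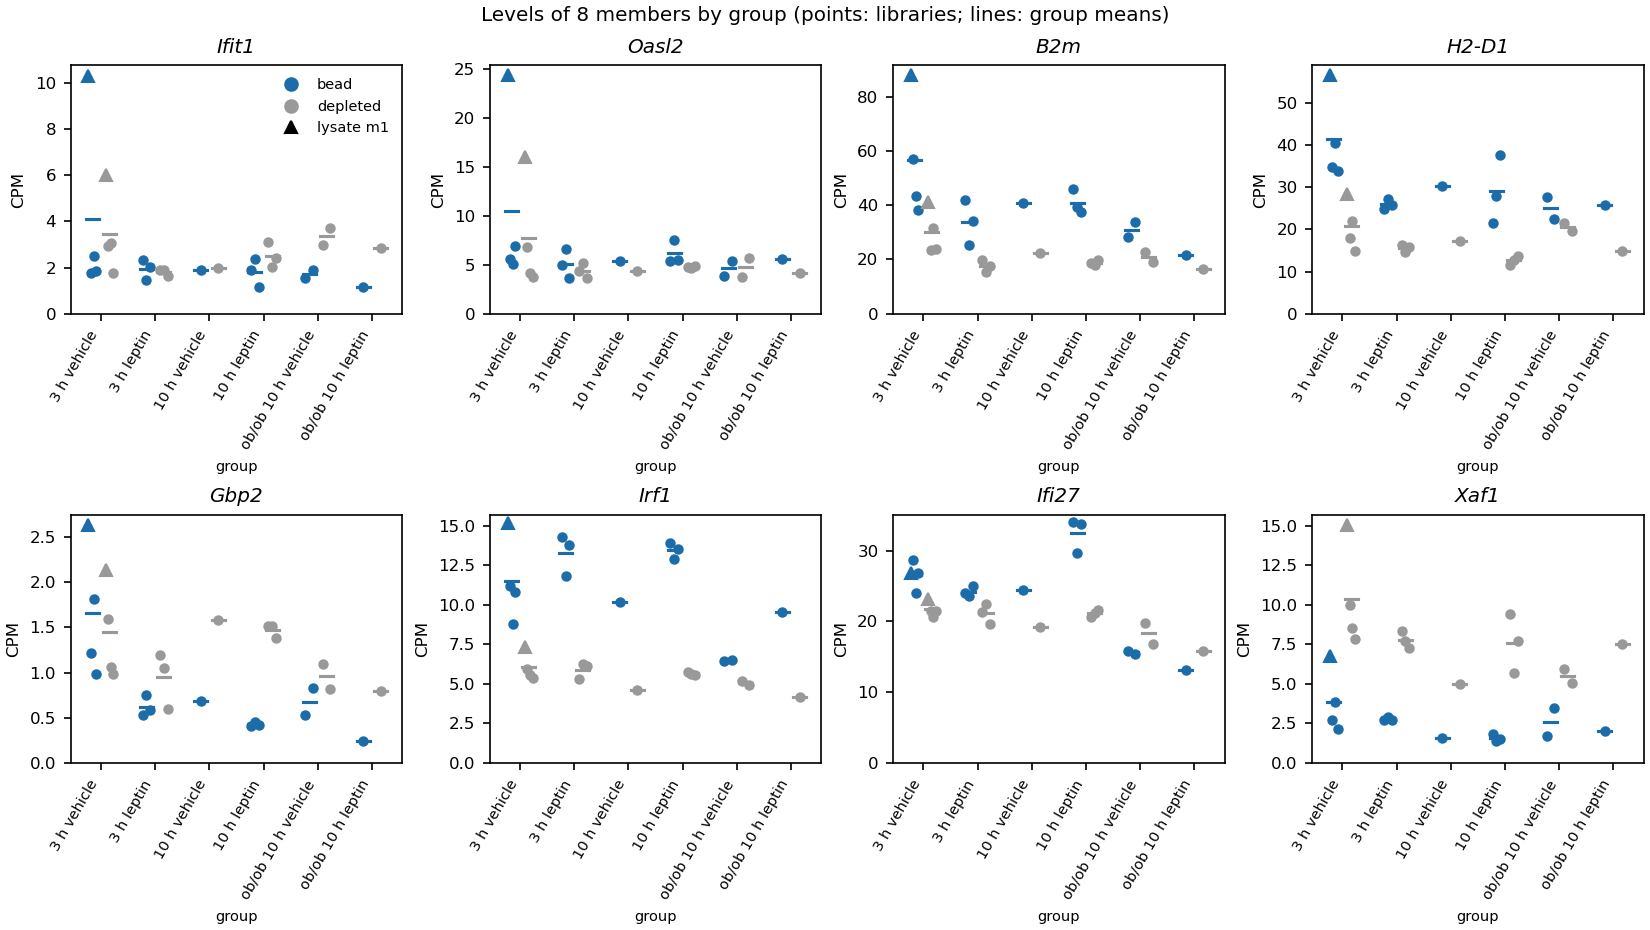
CPM of 8 members in each library, by set of lysates and treatment, with beads in blue, depleted RNA in grey and lines at group means; triangles mark vehicle m1 and circles the other lysates. In beads Ifit1 and Oasl2 are at 10.3 and 24.3 CPM in m1 and at most 2.50 and 7.54 elsewhere, and the 3 ob/ob values of Ifi27 lie between 13.2 and 15.8.

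All 8 class I genes had a leptin change below 0 in beads, with a median of -0.39 and none called. Without m1, 7 of 8 were below 0, with a median of -0.19, and Psmb8 was at 0.18. B2m was at 87.9, 56.9, 43.3 and 38.2 CPM after vehicle at 3 h and at 41.9, 25.3 and 34.2 after leptin, and at 10 h at 40.7 against 46.1, 39.2 and 37.3 in wild type and 28.2 and 33.9 against 21.7 in ob/ob. The 3 h groups overlap in 1 leptin value. The change was -0.52 (SE 0.192, adjusted p = 0.345), and -0.34 without m1 (adjusted p = 0.468). H2-D1 was at 56.6, 34.8, 40.4 and 33.9 CPM after vehicle at 3 h and at 24.9, 27.2 and 25.8 after leptin, with no overlap. At 10 h it was at 30.2 against 21.5, 27.9 and 37.6 in wild type and at 27.8 and 22.4 against 25.8 in ob/ob, where the groups overlap. Its change was -0.37 (adjusted p = 0.414), and -0.25 without m1 (adjusted p = 0.570).

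H2-K1 was at 21.8, 7.38, 15.7 and 11.3 CPM after vehicle at 3 h and at 4.07, 9.69 and 4.78 after leptin, and at 5.92 against 4.86, 5.16 and 7.81 and 3.23 and 5.24 against 3.58 at 10 h. The groups overlap in each set, and the change was -0.73 (adjusted p = 0.406), or -0.53 without m1 (adjusted p = 0.538). At 3 h alone it was -1.18, and -0.90 without m1, and it was called lower once the 2 lysates rich in pituitary transcripts were left out (-1.86, adjusted p = 0.0225). Those 2 were the lowest vehicle and the highest leptin value of H2-K1.

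Of the other members chosen for a small p, Rsad2 was at 3.38, 1.92, 1.67 and 1.83 CPM after vehicle and 1.42, 1.29 and 2.04 after leptin in beads at 3 h. At 10 h it was at 2.81 against 2.22, 2.06 and 1.69, and in ob/ob at 1.68 and 3.11 against 1.84. Its change was -0.46 (adjusted p = 0.422) and -0.31 without m1. Ifit3 was at 5.50, 2.55, 3.36 and 1.73 CPM after vehicle and at 1.69, 2.37 and 1.90 after leptin at 3 h, at 3.00 against 3.00, 2.65 and 1.34 at 10 h and at 1.99 and 4.37 against 2.32 in ob/ob. The groups of both genes overlap at 3 h and in ob/ob and not at 10 h in wild type, where the vehicle value of Ifit3 lies just above the highest leptin value. The change of Ifit3 was -0.58 (adjusted p = 0.435) and -0.38 without m1. Usp18 was at 3.99 CPM in m1, at 0.812, 0.893 and 0.845 in the other vehicle lysates of 3 h and at 0.760, 0.663 and 0.437 after leptin. At 10 h it was at 0.655 against 1.19, 0.776 and 0.306 in wild type, and at 0.574 and 0.591 against 0.194 in ob/ob. Its change of -1.01 (adjusted p = 0.444) became -0.41 without m1, a difference of more than 1.5 times.

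At 3 h alone the members leaned further down. In beads of that time 31 of 35 members were below 0 (52.3% of all genes) and the median was -0.47. By edgeR 0 were called, against 0.022% of all genes higher and 0% lower, and DESeq2 and limma voom also called 0. An unadjusted p under 0.05 was reached by 12 members, all lower, and 4.82% of all genes. Without m1, 26 of 35 were below 0 (51.6% of all genes), the median was -0.22 and 0 were called, against 0.0166% of all genes higher. Then 7 members had an unadjusted p under 0.05, with Irf1 higher and 6 lower, against 1.43% and 3.22% of all genes.

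At 10 h, over both genotypes, 15 of 35 members were below 0 (51.2% of all genes), with a median of 0.01. By edgeR, DESeq2 and voom 0 were called, against 0.022% of all genes higher by edgeR. Without adjustment (p under 0.05) Irf1 was higher, at 0.48, and Ifitm3 and Gbp2 were lower, at -1.05 and -1.07, against 3.58% and 5.51% of all genes. The difference between the times was above 0 for 30 of 35 members with a median of 0.48, where 50.6% of all genes were below 0. Without m1 it was above 0 for 25 of 35 with a median of 0.22, where 50.3% of all genes were below 0. None of these differences was called by edgeR, with or without m1, nor was any other gene (0%), and DESeq2 and limma voom called 0 members. Without adjustment Lgals3bp (0.76), H2-D1 (0.66) and Tap1 (1.19) had a higher change at 10 h than at 3 h, against 2.57% of all genes. Without m1 these were 0.64, 0.48 and 0.81, and H2-D1 no longer passed without adjustment.

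In depleted RNA the class I genes B2m and H2-D1 and the secreted Lgals3bp came closest to the threshold. B2m was at 41.0, 23.6, 31.5 and 23.9 CPM after vehicle and at 19.6, 15.4 and 17.6 after leptin at 3 h, with no overlap, and at 10 h at 22.4 against 18.7, 17.9 and 19.7 in wild type and 22.6 and 19.1 against 16.6 in ob/ob. In each set every leptin value was below every vehicle value. The change was -0.56 (SE 0.137, adjusted p = 0.0782), and without m1 -0.45 (SE 0.0857, adjusted p = 0.0482), which is a call. H2-D1 was at 28.3, 17.9, 21.9 and 14.9 CPM against 16.3, 14.5 and 15.8 at 3 h, where the groups overlap. At 10 h it was at 17.2 against 11.5, 12.8 and 13.7, and in ob/ob at 21.5 and 19.5 against 14.9, with no overlap, and its change was -0.43 (adjusted p = 0.0780), or -0.35 without m1 (adjusted p = 0.0688).

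Lgals3bp was at 12.9, 11.1, 10.2 and 7.96 CPM against 8.46, 7.89 and 6.75 at 3 h, at 10.3 against 6.32, 9.36 and 8.81 at 10 h, and at 11.1 and 10.5 against 8.77 in ob/ob, and its log2 change was -0.40 (adjusted p = 0.0810), or -0.34 without m1 (adjusted p = 0.133). Of 35 members 0 were called by edgeR and limma voom and 3 by DESeq2, which were these 3 genes, all lower. Among 19115 genes edgeR called 0.0889% higher and 0.534% lower. Without vehicle f3, Lgals3bp and H2-D1 were called lower. At an unadjusted p under 0.05 there were 10 members, all lower, and 9.85% of all genes were lower by that rule. Below 0 were 32 of 35 members (48.2% of all genes) with a median of -0.24, and 25 of 35 (49.9%) with a median of -0.15 without m1. Without m1 B2m alone was called, against 0.0158% of 18963 genes higher and 0.243% lower, and 7 members had an unadjusted p under 0.05, all lower, against 9.49%.

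Some summed markers of other cell types also differed between the treatments, and others overlapped. Summed microglia markers in depleted RNA at 3 h were 110 to 160 CPM after vehicle and 78.2 to 101 after leptin, with no overlap, and endothelial and mural markers were 78.3 to 101 and 68.9 to 78.1 CPM. Astrocyte markers overlapped, at 949 to 1209 CPM after vehicle and 785 to 971 after leptin. Oligodendrocyte markers overlapped too, at 5203 to 6153 and 4895 to 6485 CPM. In beads at 3 h microglia markers were at 39.1 to 93.4 CPM after vehicle and 30.3 to 59.5 after leptin. Endothelial and mural markers there were at 67.7 to 230 and 68.7 to 90.35 CPM. In wild-type beads at 10 h microglia markers were at 55.7 CPM in the 1 vehicle library and 26.2 to 36.5 after leptin. In ob/ob beads they were at 39.6 and 61.8 CPM after vehicle and 26.5 after leptin. A score of glial markers joined those of microglia, astrocytes and oligodendrocytes. With this score as a covariate the change of B2m in depleted RNA was -0.30 (adjusted p = 0.623), and with endothelial and mural markers -0.36 (adjusted p = 0.768). In beads those covariates left 0 members called, with medians of -0.19 and -0.27. How far such cells set the member levels was not tested further.

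The remaining leptin comparisons gave no called member by edgeR. In depleted RNA at 3 h 32 of 35 were below 0 (50.8% of all genes), with a median of -0.42. None was called by edgeR or limma voom (0% of all genes by edgeR), 12 had an unadjusted p under 0.05, all lower, against 6.06% of all genes, and DESeq2 called B2m (-0.77, adjusted p = 0.000902). Without m1, 28 were below 0 (50.8% of all genes), the median was -0.18, 0 were called (0% of all genes) and 7 had an unadjusted p under 0.05, all lower, against 4.54%. At 10 h in depleted RNA 0 were called by edgeR, DESeq2 and voom, where edgeR called 0.00523% of all genes lower. There H2-D1 alone had an unadjusted p under 0.05 (-0.45), against 5.21% of all genes lower.

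The leptin effect differed between beads and depleted RNA in 0 members by edgeR, DESeq2 and voom, where edgeR called 0.0305% of 19682 genes higher in beads. The median difference was -0.01. At an unadjusted p under 0.05 the change of Irf1 was higher in beads, by 0.33, and that of Gbp2 lower, at -0.78, against 2.01% and 3.33% of all genes. Without m1 0 members and no other gene were called (0%). Between ob/ob and wild type at 10 h the effect in beads differed in 0 members by edgeR, DESeq2 and voom, and in 0% of all genes by edgeR. Ifi27 had an unadjusted p under 0.05 (-0.64, adjusted p = 1), against 0.807% of all genes lower.

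Of the 82 other pathway genes, 73 of them tested in beads, 1 was called by edgeR in a leptin comparison. That was in beads at 10 h, where 0.022% of 18212 genes were called higher. Irf9, a transcription factor of the interferon response, was higher after leptin in beads at 10 h, by 1.33 (SE 0.195, adjusted p = 0.0302). In wild-type beads at 10 h it was at 23.6 CPM in the 1 vehicle library and at 43.5, 37.2 and 38.8 after leptin. In ob/ob beads it was at 6.89 and 9.85 CPM after vehicle and at 31.0 in the 1 leptin library. Over all depleted libraries it ranged from 6.59 to 13.8 CPM. Of the 73 other genes tested in beads with one leptin effect, 0 were called, and 21 had an unadjusted p under 0.05, 6 higher and 15 lower, against 2.84% and 8.2% of all genes. Without m1 the 21 were 8 higher and 13 lower, against 2.34% and 7.09%, and 0 were called.

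In ob/ob mice at 10 h, 1 of 35 members differed from wild type in beads. Ifi27 was at 15.8 and 15.4 CPM after vehicle and 13.2 after leptin in ob/ob, against 24.5 after vehicle and 34.0, 29.6 and 33.8 after leptin in wild type. The groups do not overlap, and the 7 wild-type bead libraries of 3 h, at 23.6 to 28.6 CPM, lay above the ob/ob values too. The log2 difference, over the vehicle and leptin arms, was -0.95 (SE 0.120, adjusted p = 0.00388), where 0.346% of 18212 genes were called lower and 0.126% higher. The same was found by DESeq2 and voom. With the vehicle lysates alone, 2 against 1, it was -0.63 (adjusted p = 0.475) and not called. In depleted RNA Ifi27 was at 19.8, 16.8 and 15.9 CPM in ob/ob and at 19.3, 20.6, 21.2 and 21.5 in wild type at 10 h, where the groups overlap, and it was not called. Whether the difference is larger in beads than in depleted RNA was not tested, and genotype cannot be told apart from sequencing run.

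The regulators and class I genes of ob/ob beads all lay below wild type in their fitted value, 6 of 6 with a median of -0.48 and 8 of 8 with a median of -0.33. The effectors lay above wild type in 10 of 17 (median 0.04) and the PARP9 group in 2 of 3, and the secreted gene lay below (-0.24). Over all members 23 of 35 were below 0, and 48.6% of all genes. At an unadjusted p under 0.05 there were 6 members, all lower in ob/ob, against 5.34% of all genes. Beside Ifi27 they were Ifih1 (-0.79), Irf1 (-0.55), Trim25 (-0.41), Psmb9 (-1.07) and B2m (-0.62), with adjusted p from 0.222 to 0.482.

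In depleted RNA 0 of 35 members were called by edgeR and limma voom, where edgeR called 2.72% of all genes higher and 2.85% lower. Class I genes lay above wild type there in 6 of 8 (median 0.14), and regulators lay below it in 5 of 6 (median -0.10). At an unadjusted p under 0.05 Eif2ak2 was higher and Ifi27 (-0.22) and Gbp2 (-0.78) were lower, against 11% and 11.4% of all genes. Eif2ak2 was at 10.4, 11.9 and 13.0 CPM in ob/ob and at 8.35, 7.53, 8.12 and 10.4 in wild type, where the lowest ob/ob and the highest wild-type value overlap. Its difference was 0.52 (adjusted p = 0.0646), and DESeq2 called it higher (adjusted p = 0.0281).

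Among the other pathway genes, nonclassical class I genes did not share a direction between ob/ob and wild type. H2-T23, the Qa-1 heavy chain that NK cells read, was at 4.88 to 6.92 CPM in the 3 ob/ob bead libraries and at 2.95 to 4.21 in the 4 of wild type at 10 h, with no overlap, and was higher by 0.92 (adjusted p = 0.0490). In depleted RNA it was at 2.99 to 3.74 against 1.68 to 2.10 CPM and was higher by 0.98 (adjusted p = 0.0132). H2-T22 and Ifitm10 were also higher there, by 0.56 (adjusted p = 0.0227) and 0.32 (adjusted p = 0.0156). H2-Q6 lay the other way in beads, at 0.242 to 0.442 CPM in ob/ob and 1.29 to 1.78 in wild type at 10 h, with no overlap, and was not called (-2.37, adjusted p = 0.261). H2-Q7 was at 0.290 to 0.574 against 0.842 to 1.64 CPM there (-1.70, adjusted p = 0.261). Of this list 1 of 73 genes tested was called higher in beads, against 0.126% of all genes, and 3 of 75 in depleted RNA, against 2.72%, and 0 were called lower in either fraction, against 0.346% and 2.85%.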

How the data were processed

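The authors deposited 1 table of whole-number read counts for 28 libraries, not normalized. STAR 2.7.6a and build GRCm38.p6 were used per the submitters' processing notes. How reads were counted (program, strand, gene models) is not given in the sources used. The kit, per the labels' protocols, selects poly(A) RNA and does not mark strand. Gene positions came from a GRCm38 annotation and promoters from RefSeq (GRCm38.p6).

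The analysis used edgeR 4.0.16 under R 4.3.3 (TMM, robust quasi-likelihood F test, two-sided, Benjamini-Hochberg over all genes tested, threshold 0.05). A gene entered a comparison with 10 or more counts in 3 or more of its libraries. Beads were compared with depleted RNA with lysate as a block, since each pair comes from 1 lysate. The same was seen in the values, where the 2 libraries of a lysate correlated in their deviations from the group means at 0.119 to 0.539. In groups of 2 or more, 12 of 12 lysates correlated best with their own partner. Deviations sum to 0 within a group, so the 12 outcomes are not independent. The 2 ob/ob vehicle lysates mirror each other and give a single outcome (0.43 for each). Leptin was compared within a fraction, either with the set of lysates as a term or with 6 group coefficients, so that a lone library is assumed to vary like the other groups. Alternatives were DESeq2 1.42.0, limma 3.58.1 (voom), library totals, no filter, marker covariates, leaving out lysates, the vehicle arms alone and no block. Scripts were tested on simulated data. Intervals and CPM rest on read counts without molecular identifiers.

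The members and lists were chosen with earlier results of these data known. Values per library are given for the 3 most raised and 3 most lowered members between fractions with a mean of at least 1 CPM and for the 8 with the smallest p for leptin in beads. Ifi27, Eif2ak2 and the genes described for vehicle m1 were named after their values were seen. Of the other pathway list, genes past the threshold in a leptin comparison and the 8 with the largest difference between fractions were named, and those of the genotype comparison, H2-Ab1, H2-Eb1 and H2-DMa after their values were seen.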

Additional observations from a re-analysis of the deposited data

Results flagged for a closer look

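The 4 vehicle lysates of wild type at 3 h were searched for a highest or lowest sample far from the other 3. Such a sample was found in 10 of 36 members in beads and in 7 of 36 in depleted RNA. For 1 gene taken alone, chance gives this in about 1 in 20 groups. The members share the same 4 lysates and are not independent, so their count cannot be set against that rate. In all but 1 case the sample was the lysate m1 and it was the highest. In beads it was at 3.989 CPM for Usp18 (others 0.812 to 0.893), at 4.321 for Psmb9 (1.786 to 1.882), at 6.618 for Rtp4 (2.024 to 2.289), at 10.304 for Ifit1 (1.772 to 2.5) and at 24.325 for Oasl2 (5.09 to 6.936). It was at 7.978 CPM for Bst2 (0.775 to 1.578), at 3.384 for Rsad2 (1.667 to 1.919), at 6.225 for Gbp3 (1.162 to 1.935) and at 10.304 for Psmb8 (3.654 to 4.682).

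In depleted RNA m1 was at 4.639 CPM for Bst2 (others 1.07 to 1.566), at 3.424 for Psmb9 (1.448 to 1.726), at 2.406 for Usp18 (0.634 to 0.889) and at 15.53 for H2-K1 (6.433 to 7.742). It was at 3.845 CPM for Tap1 (1.412 to 1.773), at 5.582 for Irf7 (1.466 to 2.128) and at 4.441 for Psmb8 (1.961 to 2.377). By this rule m1 stood apart as the highest in 25% of members in beads and 19.4% in depleted RNA, against 0.513% and 0.666% of 19682 genes. These shares describe m1, which was singled out by the same values, and are no test. The exception was Mx2 in beads, where vehicle f3 was the lowest at 0.845 CPM and the others were at 0.952 to 0.967.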

How the results depend on the processing

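Counts of called members stayed within 1.5 times the value given above in 365 cases and moved further in 19. Many of the 365 set 0 called members against 0, which the rule counts as unchanged, so they are weak evidence of stability. Without the filter on low counts, lower members after leptin numbered 7 in beads over all sets, 9 in beads at 3 h, 11 in depleted RNA over all sets and 12 at 3 h, and depleted RNA at 10 h had 1 higher and 1 lower. Under that setting ob/ob beads had 2 lower and ob/ob depleted RNA 1 higher, and 1 member was higher for 10 h against 3 h. DESeq2 called 1 lower after leptin in beads, 3 in depleted RNA over all sets and 1 at 3 h, and 1 higher in ob/ob depleted RNA, as did the endothelial covariate (1). Shares of all genes called are not given for DESeq2, for that covariate or for the fits without the filter. Such counts therefore cannot be read as particular to the members. Without the 2 lysates rich in pituitary transcripts 1 was lower after leptin in beads over all sets and 1 at 3 h. With the vehicle arms alone 0 differed in ob/ob beads. Leaving out each lysate in turn gave 0 to 2 lower in depleted RNA over all sets. Over all members and comparisons, and apart from the setting without the filter, calls were gained in 21 cases and lost in 4: Ifi27 and Oasl2 under library totals, Oasl2 without the block and Ifi27 with the vehicle arms alone. The cause of these changes was not tested.

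Without the lysate pairing (no replicate block) 17 members were higher in beads and 11 lower, and Oasl2 lost its call (0.31, adjusted p = 0.215). With the block removed no other call changed.

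Members with few reads (Gbp2 on as few as 5, Usp18 on 4) are limited by depth. The 10 h comparisons rest on 1 wild-type vehicle lysate and 1 ob/ob leptin lysate per fraction.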
